A study of Homo sapiens with 4 samples.

Results

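The NF-kB subunit genes NFKB1, NFKB2, REL, RELA and RELB and the feedback genes NFKBIA, NFKBIE, TNFAIP3, BCL3 and TRAF1 were examined in Jurkat cells, a human T-cell acute lymphoblastic leukemia line, 24 h after siRNA against LEF1. All probe sets annotated to these 10 symbols were taken, which gave 21 of the 54613 probe sets tested. One group (siLEF1) had received 100 nM of a LEF1 siRNA pool and the other (siNT) 100 nM of a non-targeting siRNA pool. Both were transfected with the reagent HiPerFect, cultured alike and measured on 2 arrays each, labelled as biological replicates. As the labels do not say whether the replicates came from separate transfections, p-values measure the spread between these arrays, which may be partly technical. The data come from 1 cell line, and no untransfected cells were analysed here. Values are RMA signals on the log2 scale, a unit in which a difference of 1 is a 2-fold change.

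NF-kB is a family of dimeric transcription factors that T cells use to answer antigen and cytokine signals, and it is often active in T-cell leukemia. In resting cells the dimers are held back in the cytoplasm by IkB proteins, which carry ankyrin repeats, and IkB kinases release them by marking IkB for destruction. The RELA and REL dimers with the product of NFKB1 form the canonical branch, and RELB with the product of NFKB2 forms the noncanonical branch. Many genes of the pathway, the IkB genes among them, are themselves induced by NF-kB, which gives the pathway its negative feedback.

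RELB was lower in siLEF1 cells, 4.17-fold, and it was the single member probe set to pass an adjusted p under 0.05 with a fold change over 2. Thus 1 of the 21 probe sets was called lower, against 0.183% of all probe sets, and 0 were called higher, against 0.0238%. At an unadjusted p under 0.05 from limma 12 were lower, where the share over all probe sets was 8.79%, and 0 were higher, where it was 6.85%. With the F test without moderation 0 of the 21 passed in either direction, and so did 0 of all 54613 probe sets. The log2 fold change was below 0 in 18 of the 21 probe sets, compared with 43.3% of all probe sets. Their median was -0.42, while that of all probe sets was 0.04. Both siLEF1 arrays lay under both siNT arrays in 15 of the 21 probe sets, against 21.2% of all, and over them in 2, against 27.4%. In each of the 10 genes the brightest probe set, by the mean over all arrays, had this order of siLEF1 under siNT, which 26.4% of all genes showed in their brightest probe set. For BCL3 that choice rests on the siNT signals of 204908_s_at. In both siLEF1 arrays the other BCL3 probe set was brighter, and it had siLEF1 over siNT. Members of 1 pathway are not independent replicates of the treatment, and the probe sets of a gene share its transcripts.

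Facts of the arrays bear on these counts. Across probe sets the siLEF1 replicates correlated at a Pearson's r of 0.995 and the siNT replicates at 0.990. With the siLEF1 arrays siNT replicate 1 reached 0.988 and 0.991, and siNT replicate 2 reached 0.979 and 0.980. Without siNT replicate 2 the median log2 fold change of the 21 probe sets was -0.35. The count of 15 and that of 10 brightest probe sets with siLEF1 under siNT cannot drop when a siNT array is left out. They were 15 and 10 against siNT replicate 1 alone, where the shares over all were 30.8% of probe sets and 37.0% of genes. Signal was higher in siNT replicate 2 than in siNT replicate 1 in 17 of the 21, against 51.2% of all probe sets. The 5' minus 3' signal of ACTB, a measure of RNA integrity, was -1.08 and -1.55 in siLEF1 cells against -1.80 and -1.95 in siNT cells, so it also moved with the groups, and its part in the differences was not tested. T-cell genes were present, with 13 of 14 listed markers over the median of every array. Of other lineages, 3 of 8 B-cell, 2 of 8 myeloid, 4 of 6 erythroid and 5 of 11 epithelial and stromal markers did so. Summed log2 signals of these lists were 40.8 and 42.0 in siLEF1 cells against 40.5 and 40.4 in siNT cells for B cells, 34.8 and 35.1 against 36.0 and 35.4 for myeloid cells, and 34.5 and 33.7 against 37.3 and 35.9 for erythroid cells. Those of the epithelial and stromal list were 58.0 and 57.0 against 57.1 and 56.3, and those of the T-cell markers 133.5 and 134.5 against 133.2 and 126.7. The erythroid and myeloid sums were thus lower in both siLEF1 arrays than in both siNT arrays, and the B-cell and T-cell sums were higher. By gene the log2 fold change was below 0 in 5 of 6 erythroid, 4 of 8 myeloid, 1 of 8 B-cell and 3 of 14 T-cell markers. The myeloid markers thus had no common direction, and their median log2 fold change was 0.05. The part of these shifts in the NF-kB values was not tested. In bulk RNA, fewer cells that express a gene and less RNA per cell cannot be told apart.

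LEF1 itself, the siRNA target, was read by 3 probe sets. Their signals in the siLEF1 and then the siNT arrays were 11.24 and 11.56 against 12.30 and 11.92, 6.88 and 7.24 against 8.20 and 7.78, and 4.48 and 4.85 against 4.89 and 4.81. In the first and second probe set both siLEF1 arrays lay under both siNT arrays, and in the dimmest the groups overlapped. The log2 fold changes were -0.71, -0.93 and -0.19 (limma adjusted p = 0.191, 0.141 and 0.673), none of which passed.

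**Figure D1:**
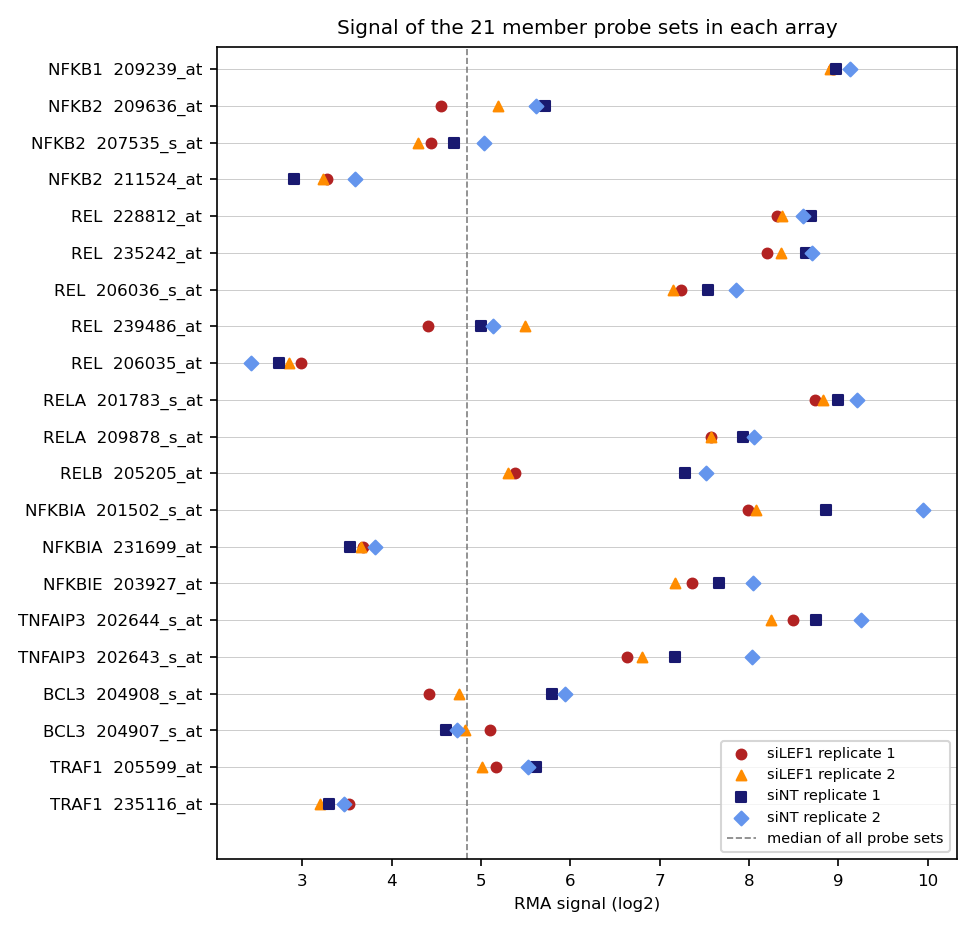
Signal in log2 units after RMA (horizontal axis) for the 21 NF-kB probe sets in each of the 4 arrays, where red circles and orange triangles are the siLEF1 replicates and dark squares and blue diamonds the siNT replicates, and the dashed line is the median of all probe sets. RELB shows the widest gap between the groups, and in NFKBIA and the dimmer TNFAIP3 probe set of the 2 the siNT replicates themselves lie far apart.

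The promoters of several members carry the binding motif of NF-kB, and these sites are shown because feedback genes of the pathway are known to be induced through such sequences. RefSeq upstream windows of 250 bases (build GRCh38.p14) were at hand for 8 of the 10 genes, in 14 windows, since some genes have several start sites. RELB and NFKBIE had no window, so their promoters were not searched for either motif. The kappaB motif was found in 6 of the 14 windows, against 9.96% of all 35116 windows of the same length. By gene it was found in 5 of the 8, against 11.8% of all 27305 symbols. A gene with several windows has more chances of a match. The matches are given 5' to 3' on the strand of the gene, with the motif in capitals and 10 bases on either side.
NFKB1, 49 to 40 bases upstream of the start (chr4:102501300-102501329, + strand): cgacgtcagtGGGAATTTCCagccaggaag
REL, 47 to 38 bases upstream (chr2:60881517-60881546, + strand): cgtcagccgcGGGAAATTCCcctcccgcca
NFKB2, start site 2, 107 to 98 bases upstream (chr10:102394461-102394490, + strand): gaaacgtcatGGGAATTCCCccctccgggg
NFKB2, start site 2, 78 to 69 bases upstream (chr10:102394490-102394519, + strand): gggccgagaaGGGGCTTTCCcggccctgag
NFKB2, start site 3, 21 to 12 bases upstream (chr10:102395674-102395703, + strand): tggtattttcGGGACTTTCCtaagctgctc
NFKBIA, 81 to 72 bases upstream (chr14:35404811-35404840, - strand): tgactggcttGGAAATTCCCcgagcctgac
TNFAIP3, 67 to 58 bases upstream (chr6:137867182-137867211, + strand): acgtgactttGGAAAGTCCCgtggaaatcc
TNFAIP3, 55 to 46 bases upstream (chr6:137867194-137867223, + strand): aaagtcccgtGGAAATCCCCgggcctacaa

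The NFKB1, REL and NFKB2 sites read in the direction of the gene, while those of NFKBIA and TNFAIP3 read on the opposite strand, and the NFKB2 site at 107 bases is a palindrome that reads on both. In REL and at that NFKB2 site a further match on the opposite strand overlaps, shifted by 1 base. NFKB2 start site 3 holds another match, on both strands, 176 bases upstream. No match was found in the windows of RELA, BCL3 and TRAF1. The core LEF1/TCF motif (CTTTG and then 2 bases that are each A or T, on both strands) was in 1 of the 14 windows, upstream of TRAF1 start site 2, against 12.0% of all windows. A match is a description of these letters and not a measured binding site.

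The whole upstream windows of NFKBIA and NFKB1 are shown since both hold a kappaB match while their log2 fold changes, -1.37 and -0.13 in the brightest probe set, were the most negative and the least negative of the genes with such a match. Capitals mark the motif.
NFKBIA (chr14:35404750-35404999, - strand): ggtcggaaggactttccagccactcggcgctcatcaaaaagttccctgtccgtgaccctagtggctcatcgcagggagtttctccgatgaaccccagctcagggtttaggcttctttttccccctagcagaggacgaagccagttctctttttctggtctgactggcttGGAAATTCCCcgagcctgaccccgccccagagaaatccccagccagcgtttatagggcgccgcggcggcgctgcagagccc
NFKB1 (chr4:102501109-102501358, + strand): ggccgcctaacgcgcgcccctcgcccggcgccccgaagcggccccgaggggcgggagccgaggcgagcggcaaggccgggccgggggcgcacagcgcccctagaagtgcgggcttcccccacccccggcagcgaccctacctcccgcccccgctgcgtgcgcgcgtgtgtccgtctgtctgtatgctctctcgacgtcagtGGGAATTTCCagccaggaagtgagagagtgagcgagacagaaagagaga

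**Figure D2:**
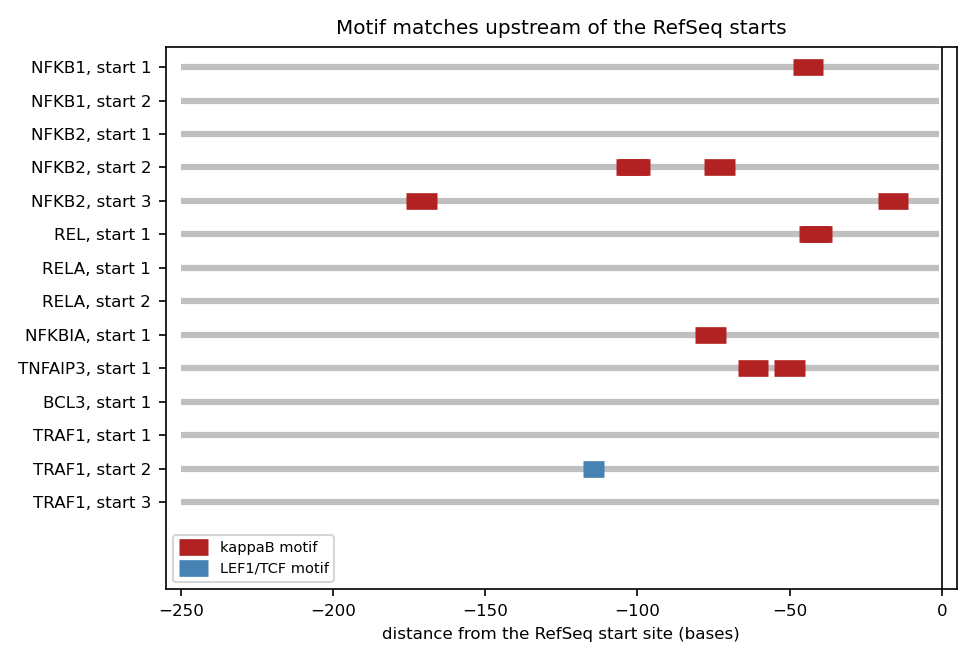
Distance in bases from the RefSeq start site (horizontal axis) of each kappaB match (red) and LEF1/TCF match (blue) in the 14 upstream windows of 250 bases (grey), numbered from the most upstream start of each gene. Matches to the kappaB motif lie in 6 windows of 5 genes, and the LEF1/TCF match lies in 1 window of TRAF1.

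Of the subunits, RELB encodes the Rel protein of the noncanonical branch, which works mostly as a dimer with the processed product of NFKB2. Its probe set 205205_at had signals of 5.38 and 5.31 in siLEF1 cells against 7.29 and 7.52 in siNT cells. The groups were 1.91 apart at their nearest values, while replicates differed by 0.07 in siLEF1 and 0.23 in siNT cells. The log2 fold change was -2.06 (standard error 0.16, 95% confidence interval -2.44 to -1.67, limma adjusted p = 0.0234, n = 2 arrays per group), and the probe set ranked 19 by p among all lower ones. All 4 signals were over the medians of their arrays. With each array left out in turn the log2 fold change ran from -2.18 to -1.94, so the size hardly moved. The call was lost without siNT replicate 2 (limma adjusted p = 0.0839) and without either siLEF1 array (limma adjusted p = 0.684 and 0.498), 3 fits in which no probe set of the array passed. Without siNT replicate 1 the adjusted p from limma was 0.0373. In each of these fits 1 group has a single array, which is assumed to vary like the other group. Without siNT replicate 1 the spread thus came from the siLEF1 arrays alone, and the probe sets called lower over the whole array went from 100 to 1287. Among the 19383 probe sets with a mean signal over 6, its adjusted p was 0.0514.

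NFKB2 encodes a precursor that contains its own ankyrin repeats and is cut to the mature partner of RELB. Its brightest probe set, 209636_at, had signals of 4.55 and 5.19 in siLEF1 cells against 5.71 and 5.61 in siNT cells. Both siLEF1 arrays were lower, but they differed by 0.64 from each other, and the log2 fold change of -0.79 did not pass (standard error 0.23, limma adjusted p = 0.202). Probe set 207535_s_at had signals of 4.44 and 4.29 against 4.70 and 5.03, a log2 fold change of -0.50 (limma adjusted p = 0.261). The third, 211524_at, was under the median of all 4 arrays with signals of 3.28 and 3.23 against 2.90 and 3.59. Its siLEF1 values lay between the siNT values, with a log2 fold change of 0.01 that turned to -0.25 when arrays were centred on housekeeping genes.

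NFKB1, the precursor of the common partner of RELA and REL, was read by 1 bright probe set, with signals of 8.94 and 8.91 in siLEF1 cells against 8.98 and 9.13 in siNT cells. The groups did not overlap, yet they were only 0.04 apart, and the log2 fold change of -0.13 did not pass (95% confidence interval -0.50 to 0.23, limma adjusted p = 0.726). This interval excludes a change as large as that of RELB.

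RELA, the main activating subunit of canonical NF-kB, had signals of 8.74 and 8.82 in siLEF1 cells against 9.0 and 9.21 in siNT cells in its brighter probe set, 201783_s_at. In 209878_s_at the signals were 7.57 and 7.58 against 7.93 and 8.06. Both probe sets were thus ordered alike, with siLEF1 under siNT, at log2 fold changes of -0.32 and -0.42 (limma adjusted p = 0.391 and 0.263), and neither passed.

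REL, the subunit prominent in lymphocytes, was read by 5 probe sets. The bright ones were 228812_at, with signals of 8.31 and 8.37 in siLEF1 cells against 8.70 and 8.60 in siNT cells, and 235242_at, with 8.20 and 8.36 against 8.63 and 8.70. In 206036_s_at the signals were 7.24 and 7.15 against 7.54 and 7.86. These 3 had siLEF1 under siNT, at log2 fold changes of -0.31, -0.39 and -0.50 (limma adjusted p = 0.383, 0.298 and 0.250). In 239486_at the siLEF1 replicates differed by 1.09 and enclosed the siNT values, with a log2 fold change of -0.12. The dimmest, 206035_at, lay under the lower quartile of every array and had a log2 fold change of 0.34 (limma adjusted p = 0.411), with siLEF1 over siNT. None of the 5 passed.

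**Figure D3:**
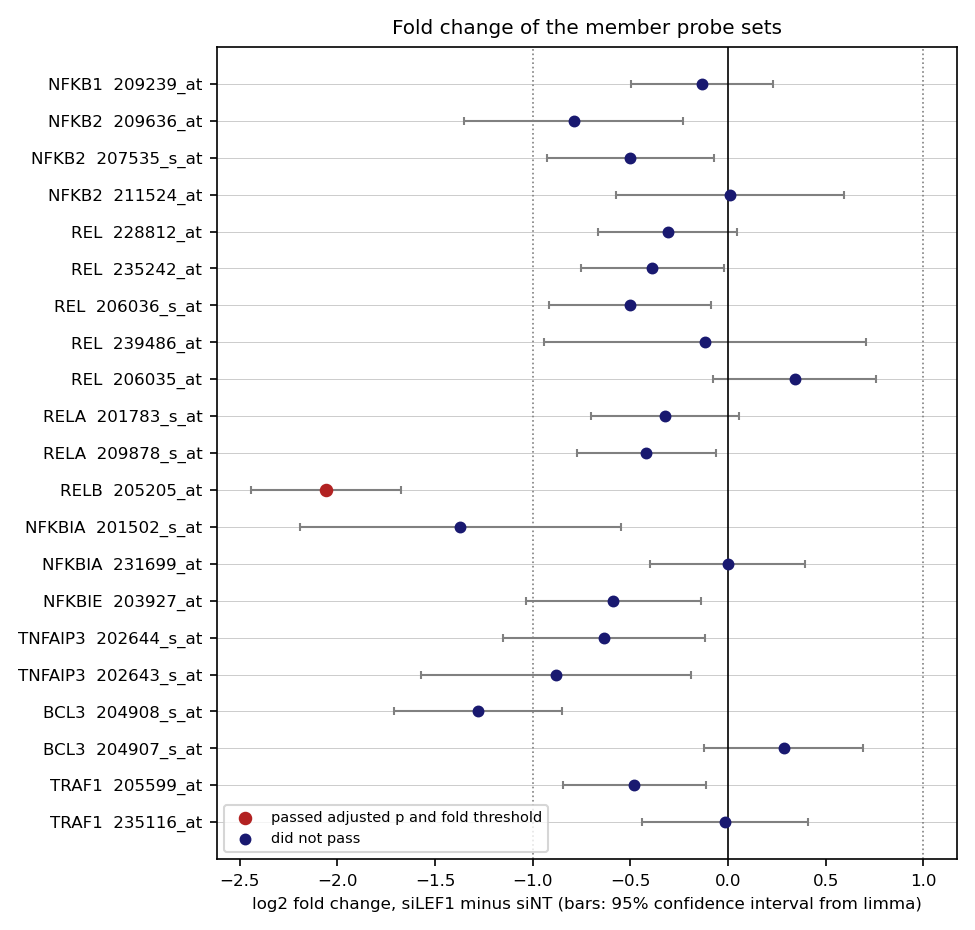
Log2 fold change, siLEF1 minus siNT (horizontal axis), of the 21 probe sets, with bars for the 95% confidence interval from limma and dotted lines at a 2-fold change. RELB (red) passed both thresholds, and 12 intervals in all lie wholly below 0, while 0 lie wholly above it.

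Among the inhibitors, NFKBIA encodes IkB-alpha, the fast feedback inhibitor that brings NF-kB out of the nucleus again. Its bright probe set 201502_s_at had signals of 7.99 and 8.08 in siLEF1 cells against 8.86 and 9.95 in siNT cells. The siLEF1 replicates agreed within 0.09, but the siNT replicates differed by 1.09, and the log2 fold change of -1.37 did not pass (standard error 0.34, 95% confidence interval -2.19 to -0.55, limma adjusted p = 0.157). Without siNT replicate 2 it was -0.83, and without siNT replicate 1 it was -1.92 (limma adjusted p = 0.0394, with the spread of the siLEF1 arrays alone). How large the difference is in NFKBIA therefore depends on which control array is used. The dim probe set 231699_at, with signals of 3.68 and 3.66 against 3.53 and 3.81, had a log2 fold change of 0.00 and its groups overlapped. The kappaB match printed above lies upstream of this gene's single listed start.

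NFKBIE, which encodes the related inhibitor IkB-epsilon, had signals of 7.36 and 7.17 in siLEF1 cells against 7.67 and 8.04 in siNT cells. The groups did not overlap, and the log2 fold change of -0.59 did not pass (95% confidence interval -1.04 to -0.14, limma adjusted p = 0.221).

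BCL3, an atypical nuclear IkB protein that works with NF-kB homodimers on DNA, was read by 2 probe sets, both annotated also to the microRNA gene MIR8085, which lies within BCL3. In 204908_s_at the signals were 4.41 and 4.76 in siLEF1 cells against 5.79 and 5.94 in siNT cells. This was the second widest gap between the groups, 1.03, and the log2 fold change of -1.28 came closest to passing after RELB (standard error 0.18, 95% confidence interval -1.71 to -0.85, limma adjusted p = 0.0673). With 1 probe set per gene, and so 19776 tests, it passed (limma adjusted p = 0.0407), as it did with arrays centred on housekeeping genes (limma adjusted p = 0.0258). The setting with 1 probe set per gene keeps 204908_s_at because of its siNT signals and leaves out the other BCL3 probe set. Over the whole array 175 and 1399 probe sets were called lower in these settings, against 100 in the main fit. In 204907_s_at the order was reversed, with 5.10 and 4.81 against 4.61 and 4.73 and a log2 fold change of 0.28 (limma adjusted p = 0.478). The 2 probe sets of BCL3 thus disagreed in direction, and both had signals on either side of the array median.

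TNFAIP3 encodes a ubiquitin-editing enzyme that shuts off signaling upstream of the IkB kinases. Signals of the brighter probe set, 202644_s_at, were 8.49 and 8.25 in siLEF1 cells against 8.75 and 9.26 in siNT cells, and those of 202643_s_at were 6.64 and 6.80 against 7.17 and 8.03. In both the siLEF1 arrays were lower and siNT replicate 2 was the highest. The log2 fold changes of -0.64 and -0.88 did not pass (limma adjusted p = 0.244 and 0.231). For 202643_s_at the value was -0.45 without siNT replicate 2 and -1.31 without siNT replicate 1 (limma adjusted p = 0.0455, likewise with the spread of the siLEF1 arrays alone, while the siNT replicates differed by 0.86).

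TRAF1, an adaptor of tumor necrosis factor receptors that NF-kB induces, had signals of 5.17 and 5.01 in siLEF1 cells against 5.62 and 5.52 in siNT cells in its brighter probe set, 205599_at. The groups did not overlap and replicates differed by 0.15 in siLEF1 and 0.09 in siNT cells, but the log2 fold change of -0.48 did not pass (95% confidence interval -0.85 to -0.11, limma adjusted p = 0.222). The dim 235116_at, at 3.53 and 3.20 against 3.30 and 3.46, overlapped between the groups, with a log2 fold change of -0.02.

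In order of the brightest probe set, the log2 fold changes ran from RELB (-2.06) over NFKBIA (-1.37), BCL3 (-1.28), NFKB2 (-0.79), TNFAIP3 (-0.64), NFKBIE (-0.59), TRAF1 (-0.48), RELA (-0.32) and REL (-0.31) to NFKB1 (-0.13). The place of BCL3 depends on the probe set, since 204907_s_at, the brighter one in both siLEF1 arrays, had a log2 fold change of 0.28. The interval of RELB overlaps with those of NFKBIA and of BCL3 204908_s_at and with none of the other 18 probe sets. Whether members differ from each other was not tested beyond these intervals. The subunits had a median of -0.35 over 12 probe sets, and the inhibitors and feedback genes one of -0.59 over 9, in which the siNT replicates also differed more (median absolute difference 0.28, against 0.18 in the subunits). The deposited arrays had medians from 4.84 to 4.85. Centring on housekeeping genes, by the median signal of 16 such genes in each array, moved every log2 fold change by -0.26. The median of all probe sets thus became -0.22 and that of the 21 became -0.67. The log2 fold changes of those 16 genes had a median of only 0.10, so the size of the shift depends on how the genes are summarised.

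**Figure D4:**
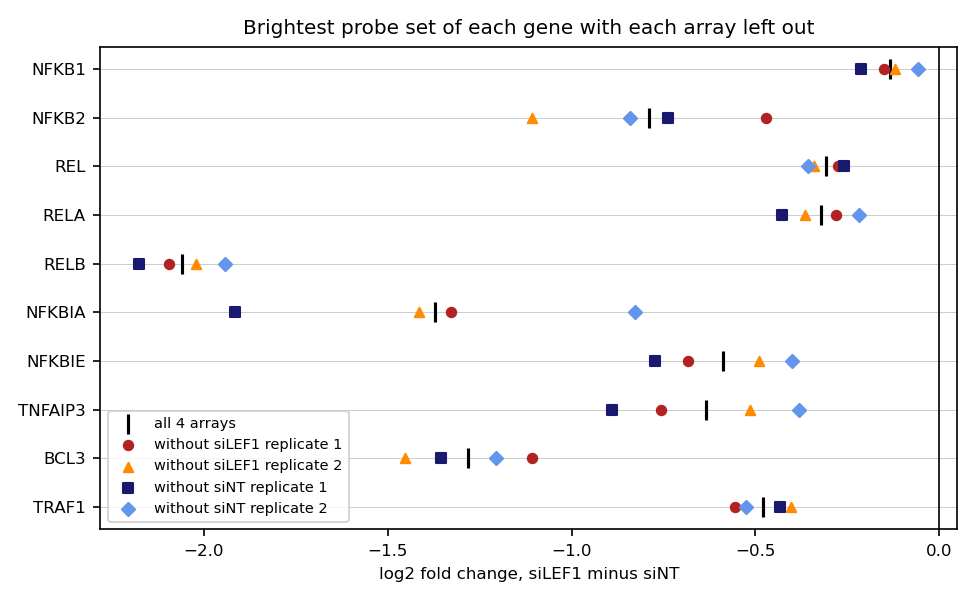
Log2 fold change, siLEF1 minus siNT (horizontal axis), of the brightest probe set of each gene from all 4 arrays (black bars) and with each array left out (symbols). Every value is below 0, RELB stays between -2.18 and -1.94, and NFKBIA moves from -1.92 without siNT replicate 1 to -0.83 without siNT replicate 2. The BCL3 probe set shown is the brighter one in the siNT arrays but not in the siLEF1 arrays.

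Genes whose profile over the 4 arrays was nearest to that of RELB, each centred on its own mean, were the histone gene H4C11, the noncoding RNA SNHG33, DNAI4, the PAR bZIP transcription factor gene TEF and TMEM200A. Their root-mean-square distances were between 0.06 and 0.11 on the log2 scale, and their log2 fold changes were -2.10, -1.96, -2.08, -2.11 and -2.28. All 5 passed the thresholds. With 4 arrays in 2 groups, likeness here means little more than a fold change of the same size with close replicates.

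Of other genes of the pathway, counts are given for the brightest probe set of each gene, where 0.263% of all genes were called lower and 0.0657% higher. Kinases, adaptors and receptors upstream of NF-kB had 0 of 28 measured genes called by limma in either direction. The F test without moderation called 0 of these genes and 0 of all probe sets. At an unadjusted p under 0.05 from limma 4 of the 28 genes were lower and 2 were higher, where the shares over all genes were 11.5% and 7.0%. Their median log2 fold change was -0.11, where that of all genes was 0.02. Both siLEF1 arrays lay under both siNT arrays in 13 (46.4%) and over them in 8 (28.6%), against 26.4% and 28.1% of all genes. TRAF6, a ubiquitin ligase of the interleukin-1 and Toll-like receptor branch, had signals of 7.37 and 7.30 in siLEF1 cells against 7.94 and 8.80 in siNT cells, a log2 fold change of -1.03 (limma adjusted p = 0.180). TRAF5 went the other way, with 9.27 and 9.11 against 8.67 and 8.07 and a log2 fold change of 0.82 (limma adjusted p = 0.180). The adaptor BCL10, which links the antigen receptor to the IkB kinases, had one of -0.67, the linear ubiquitin ligase subunit RBCK1 one of -0.53, the ubiquitin ligase BIRC2 one of -0.44 and the kinase IRAK1 one of 0.45. None of these passed.

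For other inhibitors of NF-kB signaling the median log2 fold change of 19 measured genes was -0.29, where that of all genes was 0.02. In 12 (63.2%) both siLEF1 arrays were under both siNT arrays, and in 3 (15.8%) they were over them. The shares over all genes were 26.4% and 28.1%. None was called by limma, and the F test without moderation called 0, as it did over all probe sets. Lower at an unadjusted p under 0.05 were 6, and 1 was higher, beside 11.5% and 7.0% of all genes. NFKBIZ, an inducible nuclear IkB protein, had signals of 5.05 and 5.36 in siLEF1 cells against 6.64 and 7.71 in siNT cells. This came to -1.97 on the log2 scale (limma adjusted p = 0.0935), with siNT replicates 1.07 apart as in NFKBIA. The ubiquitin ligase ITCH and the deubiquitinase CYLD had values of -1.36 and -1.25 (limma adjusted p = 0.0956 and 0.102). In both the siNT replicates differed, by 0.66 and 0.65, with replicate 2 higher. NFKBIL1, N4BP1 and the deubiquitinase OTUD7B had values of -0.67, -0.67 and -0.50 and did not pass.

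For target genes of NF-kB outside the 10 members the median log2 fold change was -0.08, where that of all genes was 0.02. Of the 46 measured genes 1 was called lower and 0 were called higher, against 0.263% and 0.0657% of all genes. The unadjusted p from limma was under 0.05 in 11 lower and 2 higher genes, beside 11.5% and 7.0% of all genes. By the F test without moderation 0 target genes were called, as were 0 of all probe sets. Both siLEF1 arrays lay under both siNT arrays in 18 (39.1%) and over them in 7 (15.2%), against 26.4% and 28.1% of all genes. The gene that passed was PTGS2, which encodes the inducible cyclooxygenase of prostaglandin synthesis. It had signals of 2.98 and 3.59 in siLEF1 cells against 5.77 and 5.53 in siNT cells, a log2 fold change of -2.36 (standard error 0.23, limma adjusted p = 0.0404). Its siLEF1 signals were dim, so the size of the change is uncertain, and the call was lost when siLEF1 replicate 1, siLEF1 replicate 2 or siNT replicate 2 was left out. The chemokine gene CXCL8 had signals of 3.66 and 3.24 against 5.37 and 6.05, and CCL20 had 4.28 and 3.59 against 5.76 and 5.89. Both just missed the threshold, with log2 fold changes of -2.26 and -1.89 (limma adjusted p = 0.0517 and 0.0594). Their siLEF1 signals also lay under the array medians, so the size of these changes is uncertain as well. CD69, an early activation marker of T cells, had a log2 fold change of -1.26 (limma adjusted p = 0.0692), with signals of 6.65 and 6.60 against 8.07 and 7.70. MYC, by contrast, had one of 0.88 (limma adjusted p = 0.139), with siLEF1 over siNT. NFKBIZ and TNIP1 belong to both the inhibitor and the target list.

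**Figure D5:**
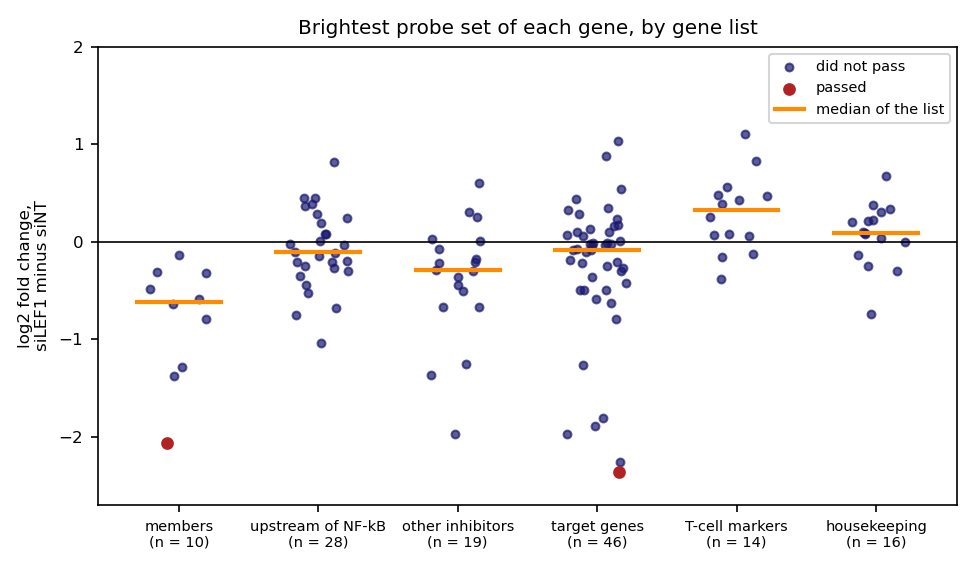
Log2 fold change, siLEF1 minus siNT (vertical axis), of the brightest probe set of each gene in the 10 members and in lists of upstream genes, other inhibitors, target genes, T-cell markers and housekeeping genes, where red points passed the thresholds and orange lines are medians. The medians are -0.61, -0.11, -0.29, -0.08, 0.32 and 0.10, and RELB and PTGS2 are the red points.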

How the data were processed

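RNA was labelled with a 3' IVT kit and hybridized to Affymetrix HG-U133 Plus 2.0 arrays. The authors used Affymetrix Expression Console (the submitters' processing notes give version 1.1) to extract signals and ran RMA, which yields the deposited log2 values of each probe set in every array. Which arrays shared that run is not given in the sources used here. Every probe set except 62 controls was tested, 54613 in all, with no filter, by the 2-sided moderated test of limma 3.58.1 (R 4.3.3, siLEF1 minus siNT) with Benjamini-Hochberg adjustment over all of them, and a call needed both an adjusted p under 0.05 and more than a 2-fold change. Residual degrees of freedom were 2, and eBayes contributed 4.30 more. The study's methods compare 3 groups, and 2 were analysed here. Symbols came from the platform annotation, updated by Entrez number: 41091 probe sets had 1 symbol, 1801 several and 11721 none listed, which leaves a gene possible. For a gene in a list, the brightest probe set by mean signal was used. The number of arrays limits the precision, and raw signals were not used.

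The members and lists were chosen with earlier results of these data known, and no p was adjusted over a list. Genes named are all members, LEF1, the 6 genes with the smallest p in each pathway list and any called there, and the 5 nearest profiles to the member with the smallest p. The kappaB motif (GGG, a purine, 2 bases, 2 pyrimidines, CC) and the LEF1/TCF core were searched on both strands of the 250 bases before each RefSeq start (GRCh38.p14). Alternatives were a filter on dim probe sets, eBayes with a trend, no moderation, the replicate number as a block, other centring, other probe set choices, other fold thresholds and each array left out.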

Additional observations from a re-analysis of the deposited data

How the results depend on the processing

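Centring on the array median changed neither the direction nor the call of any of the 21 NF-kB probe sets, and nor did eBayes with a trend and robust variances. RELB stayed below 0 in every alternative. Over all probe sets 100 were called lower and 13 higher. These counts were 4 and 1 among probe sets with a mean signal over 6, 0 and 0 by the F test without moderation (4393 at an unadjusted p under 0.05), 1399 and 26 with centring on housekeeping genes, and 175 and 29 with 1 probe set per gene. With the intensity trend and robust variances 130 were lower and 20 were higher. With an array left out they ran from 0 to 1287 and from 0 to 595. Of the 21 NF-kB probe sets 1 was called lower (RELB). This count was 0 over a mean signal of 6, 0 without moderation, 2 with housekeeping centring, 2 with 1 probe set per gene, and 0 to 3 with an array left out, of which the 3 without siNT replicate 1 were RELB, NFKBIA and TNFAIP3 202643_s_at, from the spread of the siLEF1 arrays alone. None was higher in any of these. Their median of -0.42 was -0.67 with housekeeping centring, -0.22 without probe sets whose names end in _x_at or _s_at and -0.61 with 1 probe set per gene. Left-out arrays moved it only between -0.43 and -0.35. Without the 2 probe sets shared with MIR8085, a choice made after seeing the data, it stayed at -0.42 over 19 probe sets.

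The replicate number is shared between the groups, but no label says that it pairs the arrays, and the deviations of same-numbered arrays correlated at -0.15. With the number as a block 977 probe sets were lower and 120 higher, among them 3 of the NF-kB probe sets (RELB, BCL3 204908_s_at and NFKBIA 201502_s_at), 3 other inhibitors and 5 target genes. With the pairing crossed, also chosen after seeing the data, 763 were lower and 159 higher, with 2 of the NF-kB probe sets.

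Upstream genes had a median of -0.032 in the 23 of 28 over a mean signal of 6, -0.36 with housekeeping centring and -0.11 to -0.048 with an array left out. Other inhibitors had a median of -0.54 with housekeeping centring and of -0.33 to -0.20 with an array left out. With housekeeping centring 3 of them were called lower, in a setting where 1399 of all probe sets were. Target genes called lower were 0 without moderation, 2 with the trend and robust variances, 5 with housekeeping centring and 4 with 1 probe set per gene. Over the whole array 0, 130, 1399 and 175 probe sets were called lower in these settings, against 100 in the main fit. The filter on a mean signal over 6 keeps 25 of the 46 target genes. It drops PTGS2, the gene called in the main fit, so the count of 0 there does not test that call. The median of the target genes was -0.031 in the 25 over a mean signal of 6, -0.33 with housekeeping centring and -0.19 to -0.031 with an array left out. The sign of a single NF-kB probe set changed in 4 cases, with an array left out: NFKB2 211524_at (-0.33 to 0.35, and -0.25 with housekeeping centring), REL 239486_at (-0.66 to 0.43), NFKBIA 231699_at (-0.14 to 0.14) and TRAF1 235116_at (-0.18 to 0.15). The cause of these changes was not tested. A filter on dim probe sets leaves 11 of the 21, so the other 10 have no value there.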

Other observations

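Among the target genes, GADD45B, which encodes a stress-inducible protein that NF-kB induces, had signals of 7.70 and 7.42 in siLEF1 cells against 7.83 and 10.9 in siNT cells. The siNT replicates thus differed by 3.07 on the log2 scale, and the log2 fold change of -1.80 did not pass (limma adjusted p = 0.392). It lies outside the rule for naming genes and was chosen after its values were seen. In the T-cell markers siNT replicate 2 was the lower of the siNT arrays in all 14 measured genes. Over all genes siNT replicate 2 was over siNT replicate 1 in 48.8% of the brightest probe sets. The median signal of the T-cell markers was 9.72 in siNT replicate 1, 9.13 in siNT replicate 2 and 9.85 and 9.98 in the siLEF1 arrays. Of the 14, 0 passed in limma. At an unadjusted p under 0.05, 6 were higher and 0 were lower, beside 7.0% and 11.5% of all genes.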
